A study of Mus musculus with 13 samples.

Results

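The Kruppel-like factors are a family of DNA-binding transcription factors, and 10 of their genes (Klf2, Klf3, Klf4, Klf5, Klf6, Klf7, Klf9, Klf10, Klf13 and Klf16) were taken by gene symbol from a table of 53465 mouse genes. All 10 were found, and all 10 passed the filter on low values described further on. Bulk RNA was measured in 10 MP tumors and in 3 wild-type (WT) ovaries of untreated C57BL/6 mice. MP tumors were EPO-GEMM tumors, grown after plasmids were injected into the ovary of WT C57BL/6 females aged 8 to 12 wk and taken into cells by electroporation. One vector expressed Cas9 and an sgRNA targeting Trp53, and the other was a transposon overexpressing MYC, moved by the Sleeping Beauty transposase. Host cells other than the electroporated ones were unedited, each tumor may hold several clones, and whole tumor tissue was sampled at endpoint from mice that received no therapy. The names of the libraries in the labels carry 1 of 3 numbers, whose meaning is not given, and the libraries are called set A (WT ovaries 1 to 3 and MP tumors 1 to 3), set B (MP tumors 4 to 6) and set C (MP tumors 7 to 10) after them.

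Kruppel-like factors bind GC-rich and CACCC sequences through zinc fingers at the C-terminal end of the protein, and members differ in the regions outside them. Klf2, Klf4, Klf5, Klf6 and Klf7 belong to the branch known mainly for activating transcription, Klf3 recruits the CtBP corepressors, and Klf9, Klf10, Klf13 and Klf16 recruit the SIN3A corepressor and its histone deacetylases. Klf2 and Klf4 are induced in endothelial cells by blood flow through MEK5, ERK5 and MEF2 factors. In the ovary, family members are studied as cofactors of steroid hormone receptors and as growth regulators of granulosa and luteal cells.

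Promoter sequences of 7 members were matched in RefSeq (GRCm38.p6), each running from 250 bases before to 50 bases after the annotated start. None was matched for Klf5, Klf10 and Klf16. Those of Klf4 and Klf6 are shown because these genes differed between tumors and ovaries, and that of Klf2 because it holds a MEF2 box, the element bound by the factors downstream of ERK5. Capitals mark GGGCGG on either strand in Klf4 (chr4:55532426-55532725, minus strand), CCAAT on either strand in Klf6 (chr13:5861239-5861538, plus strand) and the MEF2 box in Klf2 (chr8:72318812-72319111, plus strand).
Klf4: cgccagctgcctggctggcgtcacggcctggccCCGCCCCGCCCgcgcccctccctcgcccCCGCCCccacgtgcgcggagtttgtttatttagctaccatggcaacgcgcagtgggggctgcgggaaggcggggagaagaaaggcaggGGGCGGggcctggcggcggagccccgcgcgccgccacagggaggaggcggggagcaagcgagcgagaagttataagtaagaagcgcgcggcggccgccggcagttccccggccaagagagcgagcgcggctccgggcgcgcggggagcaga
Klf6: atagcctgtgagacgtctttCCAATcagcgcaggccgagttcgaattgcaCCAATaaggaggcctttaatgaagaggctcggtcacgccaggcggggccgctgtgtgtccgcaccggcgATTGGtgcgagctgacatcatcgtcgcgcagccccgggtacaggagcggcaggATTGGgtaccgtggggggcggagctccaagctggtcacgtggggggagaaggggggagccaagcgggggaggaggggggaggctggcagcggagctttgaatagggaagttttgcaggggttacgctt
Klf2: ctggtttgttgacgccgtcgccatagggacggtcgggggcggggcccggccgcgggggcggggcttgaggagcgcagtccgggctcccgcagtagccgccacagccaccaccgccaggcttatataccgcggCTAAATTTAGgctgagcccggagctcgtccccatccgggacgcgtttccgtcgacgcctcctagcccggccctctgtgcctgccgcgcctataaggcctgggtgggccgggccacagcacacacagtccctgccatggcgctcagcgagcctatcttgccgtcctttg
The Klf4 window held 4 copies of GGGCGG, which can overlap by a base, and 0 of CACCC. Of all 32851 promoters of this length, 35.7% held GGGCGG and 57.5% held CACCC. The Klf6 window held 4 copies of CCAAT, a motif present in 37.4% of promoters. A MEF2 box was present in 3.19% of promoters and in 1 of the 7 members. GC content lay between 58.3% in Klf7 and 76.7% in Klf3, against a median of 52.7% over all promoters. These matches are letters in a window and no binding was measured.

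Values are the deposited length-scaled transcript abundances (TPM), whose sum is 1000000 for every library. Reads worked back from them came to 31445004 to 64013840 per WT ovary and 3892690 to 19906507 per MP tumor. At a gene length of 1 kb, a single read was worth between 0.0513 TPM (WT ovary 3) and 0.790 TPM (MP tumor 5). The 10 most abundant genes took 55.1% of the TPM of MP tumor 2, against at most 20.6% in any other library. Trp53 RNA was 80.7, 85 and 85.4 TPM in the WT ovaries and 4.3 to 26 TPM in MP tumors 1 to 9, whereas the library labelled MP tumor 10 had 187 TPM. RNA of the mouse Myc gene ranged from 7.09 to 419 TPM in MP tumors around the 126 to 129 TPM of WT ovaries, and whether reads of the transposon fall in this row is not stated. The summed TPM of 5 theca and luteal markers was 25024 to 28130 in WT ovaries and 7.44 to 824 in MP tumors, and that of 6 epithelial markers was 237 to 267 in WT ovaries and 5.67 to 1152 in MP tumors, with Cdh1 and Krt19 at 0 in some tumors. In bulk tissue, fewer cells of a type and less RNA per cell cannot be told apart.

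**Figure D1:**
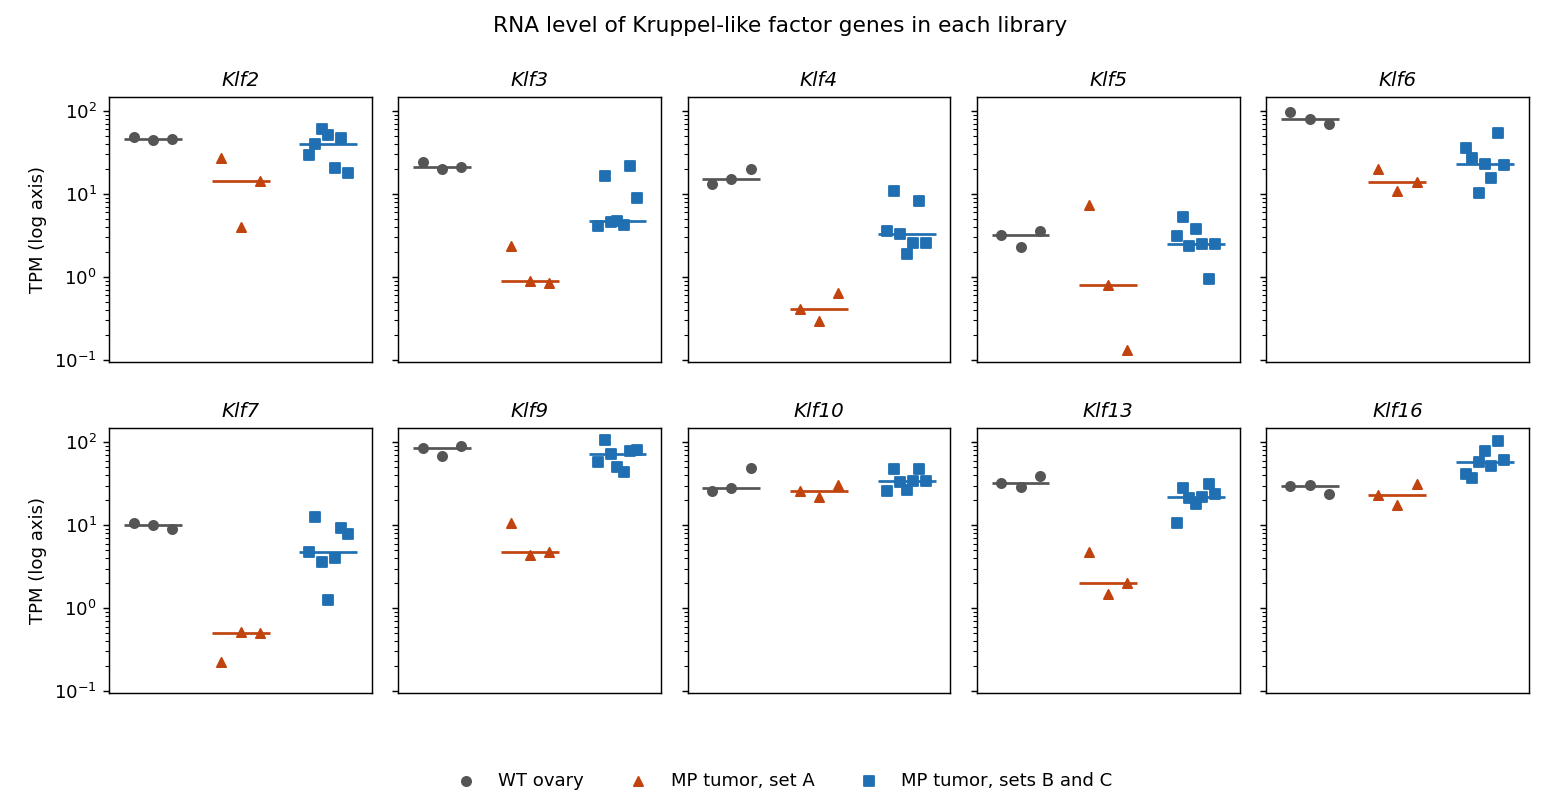
TPM of the 10 Kruppel-like factor genes on log axes. Each point is a library and each bar the median of its group: 3 WT ovaries, 3 MP tumors of set A and 7 MP tumors of sets B and C. All MP tumors lie below all WT ovaries for Klf4 and Klf6, whereas for Klf9 and Klf13 the 3 tumors of set A lie far below the other 7.

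The comparison of MP tumors with WT ovaries asked which members differ between tumor tissue and whole ovary. The paper traces the tumors to epithelial cells, and whole ovary holds other cell types as well. Klf4 and Klf6 were lower in MP tumors, and 0 members were higher. All genes with at least 1 TPM in at least 3 libraries (17277) were fitted with limma on log2(TPM + 1), and a gene was called when its Benjamini-Hochberg adjusted p was under 0.05. Over all tested genes, 14.3% were called lower and 2.51% higher, and 5707 had an unadjusted p under 0.05. The median log2 fold change was -0.58 over all tested genes and -1.33 over the 10 members, of which 9 were negative. Because TPM is a share of the library, this shift of the median depends on the scaling. When libraries were scaled by median-of-ratios size factors, the median of all genes was -0.02, with 11% called lower and 7.37% called higher. Under that scaling Klf3, Klf4 and Klf6 were lower and Klf16 was higher, the median of the members was -0.68, and Klf5 and Klf10 also had positive values.

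Klf6 is an activator induced early after injury and growth signals and has been studied as a growth suppressor. It was at 96.1, 80.4 and 70.3 TPM in the WT ovaries. In the 10 MP tumors it ranged from 10.2 TPM in MP tumor 6 to 55.0 TPM in MP tumor 9, with a median of 21.4. The groups did not overlap, which held for 16.4% of tested genes in this direction. The WT mean of 82.3 ± 13 TPM (SD, n = 3) was 3.52-fold the tumor mean of 23.4 ± 13.6 TPM (SD, n = 10). On the log2(TPM + 1) scale Klf6 fell by 1.93 (SE 0.46, limma adjusted p = 0.00944), and an exact permutation test over all choices of 3 libraries gave 0.0035, the smallest p it can give (2-sided). The change was -1.23 (adjusted p = 0.0420) under median-of-ratios scaling, and -1.73 (adjusted p = 0.0170) in the 7 tumors of sets B and C. The adjusted p was 0.0692 without WT ovary 1 and 0.0506 without WT ovary 2. Of 28 alternative fits, 26 called Klf6 lower.

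Klf4, a factor of epithelial barriers and quiescent endothelium that also belongs to the set used to reprogram cells to pluripotency, was at 13.2, 15.3 and 20.1 TPM in the WT ovaries. In MP tumors it ranged from 0.295 TPM in MP tumor 2, where it rested on 5 reads, to 10.9 TPM in MP tumor 5, with a median of 2.55. Here too the groups did not overlap. The WT mean of 16.2 ± 3.50 TPM (SD, n = 3) was 4.72-fold the tumor mean of 3.43 ± 3.49 TPM (SD, n = 10). Klf4 fell by 2.30 on the log2(TPM + 1) scale (SE 0.63, limma adjusted p = 0.0212, exact permutation p = 0.00699). The 3 tumors with the least Klf4 all belonged to set A, at 0.295 to 0.636 TPM. Without them the change was -1.76 (adjusted p = 0.0250). Of 28 alternative fits, 24 called Klf4 lower, and the call was lost without WT ovary 1, 2 or 3 (adjusted p 0.0749, 0.0846 and 0.113) and with a pseudocount of 0.1 (0.0532).

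Klf3, which recruits CtBP corepressors and is known from adipose and erythroid cells, came near the threshold. It was at 24.3, 20.1 and 21.2 TPM in the WT ovaries, and ranged from 0.852 TPM in MP tumor 3 to 21.8 TPM in MP tumor 9, with a median of 4.43. MP tumor 9 lay inside the range of the WT ovaries and the other 9 tumors below it. The log2 fold change was -1.99 (SE 0.69, limma adjusted p = 0.0587, exact permutation p = 0.0280). It was -1.41 (adjusted p = 0.0468) under median-of-ratios scaling. The adjusted p was 0.0202 without MP tumor 9 and 0.0295 without MP tumor 5. After removing from every library its trend over gene length, the change was -0.95 (adjusted p = 0.0635). Without the tumors of set A it was -1.41 as deposited (adjusted p = 0.0745). Of 28 alternative fits, 9 called Klf3 lower. The exons of Klf3 overlap those of Gm20033 on the other strand, and whether counting used strand is not stated, so their reads cannot be told apart.

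Klf16, a SIN3A-binding member that was first described in brain, had the only positive change as deposited. It was at 29.7, 31.1 and 23.6 TPM in the WT ovaries, and from 17.6 TPM in MP tumor 2 to 103 TPM in MP tumor 9, with a median of 46.3. MP tumors 1 and 2 lay below the WT ovaries and the other 8 above them. As deposited, the log2 fold change was 0.65 (SE 0.46, limma adjusted p = 0.332, exact permutation p = 0.196). Under median-of-ratios scaling all 10 tumors lay above all WT ovaries (9.45% of tested genes did so under that scaling, and 3.02% as deposited), at 26.7 to 80.4 scaled TPM against 16.3 to 20.9, and the change was 1.34 (SE 0.30, adjusted p = 0.00746). After removing from every library its trend over gene length it was 1.19 (adjusted p = 0.0204), where 10.3% of genes were called lower and 10.4% higher. In the 7 tumors of sets B and C it was 1.04 as deposited (adjusted p = 0.0396), beside 13.5% of genes called lower and 4.68% called higher. In the 3 tumors of set A it was -0.25 as deposited (adjusted p = 0.517) and 1.27 after scaling (adjusted p = 0.00427). The direction of Klf16 thus depended on the scaling in those 3 tumors.

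Klf2, the other factor induced by blood flow and also a factor of resting T cells, varied little between WT ovaries, at 48.6, 45.3 and 46.6 TPM. In MP tumors it ranged from 4.0 TPM in MP tumor 2 to 61.5 TPM in MP tumor 6, with a median of 28.4. Of the tumors, 7 lay below the WT ovaries, 2 above and 1 within their range. The log2 fold change was -0.85 (SE 0.61, limma adjusted p = 0.332, exact permutation p = 0.220). Klf2 and Klf4 therefore parted in MP tumor 6, which held the most Klf2 of all libraries and 3.26 TPM of Klf4.

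The other 2 activators were among the least abundant members. Klf7, known from neurons and adipose tissue, was at 10.8, 10.0 and 9.02 TPM in the WT ovaries and from 0.222 to 12.7 TPM in MP tumors, with a median of 3.80. MP tumor 5 lay above the WT ovaries, MP tumor 9 within their range and the other 8 tumors below it (log2 fold change -1.45, SE 0.71, adjusted p = 0.167). Its exons overlap those of Gm26649 and Gm13748 on the other strand, whose reads cannot be told apart from its own. Klf5, a factor of proliferating epithelium, was at 3.20, 2.27 and 3.56 TPM in the WT ovaries and from 0.132 to 7.30 TPM in MP tumors, with a median of 2.49. MP tumor 1 held the highest value and MP tumor 3, with 6 reads, the lowest, and both groups overlapped (log2 fold change -0.26, SE 0.53, adjusted p = 0.743, and 0.20, adjusted p = 0.810, under median-of-ratios scaling).

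The SIN3A-binding members Klf9, Klf10 and Klf13 did not pass the test over all 10 tumors. Klf9, which is induced by glucocorticoids and thyroid hormone and acts as a cofactor of the progesterone receptor, was at 85.2, 68.8 and 91.8 TPM in the WT ovaries. In MP tumors it ranged from 4.41 to 107 TPM with a median of 54.2 (log2 fold change -1.24, SE 0.87, adjusted p = 0.321). Klf13, studied in T cells and heart, was at 32.0, 28.7 and 39.3 TPM in the WT ovaries and from 1.48 to 31.6 TPM in MP tumors, with a median of 19.6 (-1.41, SE 0.76, adjusted p = 0.204). For both genes the 3 lowest values were those of MP tumors 1 to 3. Klf10, an early target of TGF-beta, was at 25.8, 27.9 and 49.1 TPM in the WT ovaries and 22.2 to 47.5 TPM in MP tumors, with a median of 32.0. Its highest tumor value was 2.14-fold its lowest, the smallest such fold of the 10 members as deposited, although after scaling the SD of log2 values was 0.49 for Klf10 and 0.45 for Klf16. For Klf10, 9 of 10 tumors lay inside the range of the WT ovaries (-0.04, SE 0.34, adjusted p = 0.942, and 0.66, adjusted p = 0.191, under median-of-ratios scaling).

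**Figure D2:**
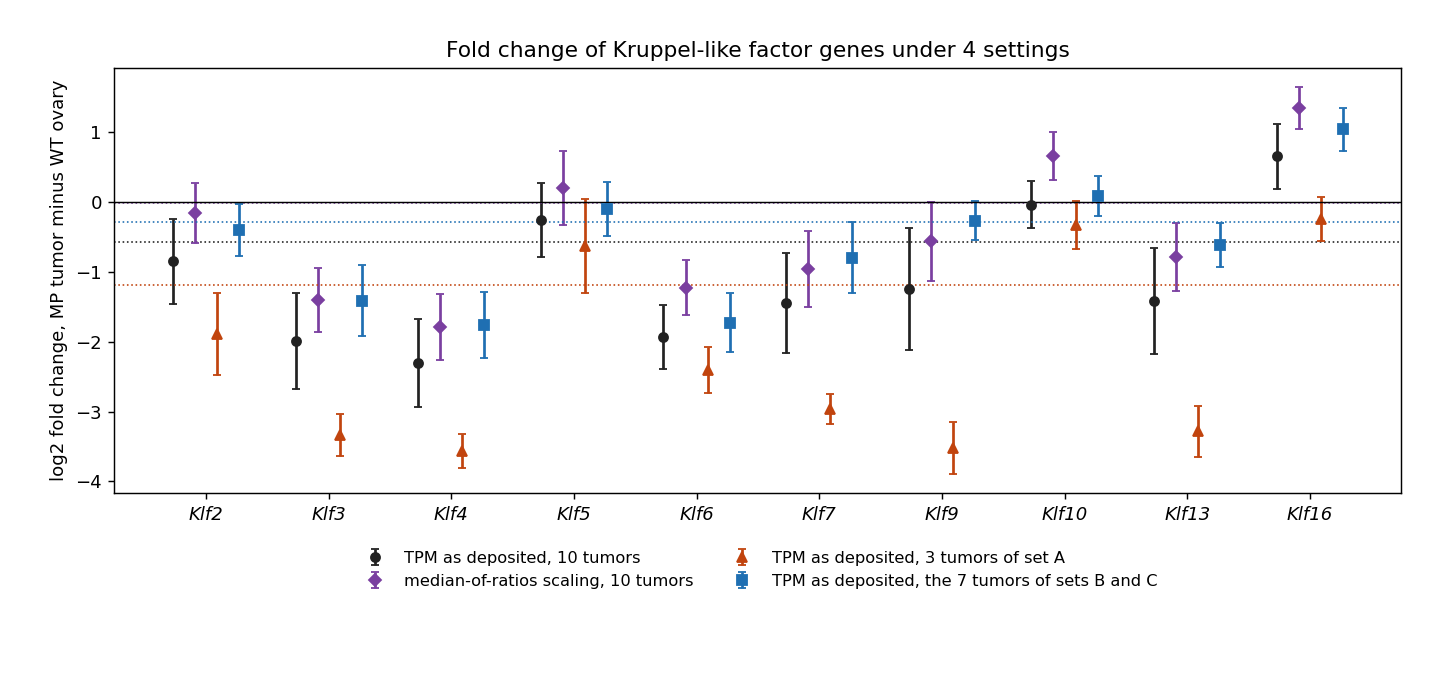
Log2 fold change of each member, MP tumor minus WT ovary, with bars of 1 SE, under 4 settings: all 10 tumors as deposited, all 10 after median-of-ratios scaling, the 3 tumors of set A and the other 7. Dotted lines give the median of all tested genes in the setting of the same color, -0.58 over 10 tumors as deposited and -1.19 in the 3 tumors of set A. Klf4 and Klf6 lie below 0 in all 4 settings, and Klf9 is at -3.52 in the 3 tumors of set A and -0.27 in the other 7.

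All WT ovaries belong to set A, so tumor and ovary can be compared within 1 set only there, and for the other 7 tumors the set and the condition cannot be told apart. Within set A, 7 of the 10 members were lower (Klf2, Klf3, Klf4, Klf6, Klf7, Klf9 and Klf13) and 0 were higher. In the same fit, 57.3% of all tested genes were called lower and 6.44% higher. With median-of-ratios scaling the same fit called 6 members lower and 2 higher, Klf10 among the latter (log2 fold change 1.19, adjusted p = 0.0206), beside 33% of genes called lower and 25.8% higher. The largest changes as deposited were those of Klf4 (-3.56, SE 0.24), Klf9 (-3.52, SE 0.37), Klf3 (-3.33, SE 0.30), Klf13 (-3.28, SE 0.36) and Klf7 (-2.96, SE 0.21). Between the other 7 tumors and the same WT ovaries, the changes were -1.76 for Klf4, -0.27 for Klf9, -1.41 for Klf3, -0.61 for Klf13 and -0.80 for Klf7. Of these 5, Klf4 alone passed the test there. Within set A under median-of-ratios scaling, the 5 changes were -2.54 (Klf4), -2.05 (Klf9), -2.12 (Klf3), -1.95 (Klf13) and -1.94 (Klf7). As deposited, the changes within set A fell with gene length over all tested genes (Pearson's r with log2 length -0.39, a description). Klf3, Klf7 and Klf13 are the longest members, at 11243, 8131 and 7531 bases.

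The tumors themselves were compared by set, the 3 of set A against the 7 of sets B and C, with the same limma fit over all tested genes. Klf9 was at 10.7, 4.41 and 4.82 TPM in MP tumors 1 to 3 and at 44.3 to 107 TPM in the other 7, with a median of 71.5. The 2 groups of tumors did not overlap, and the difference was -3.25 (SE 0.37, adjusted p = 0.000574). Klf13 was at 4.71, 1.48 and 2.01 TPM against 10.7 to 31.6 TPM, also without overlap (-2.67, SE 0.41, adjusted p = 0.000719). Klf7, Klf3, Klf4, Klf2 and Klf16 were lower as well (adjusted p from 0.00955 to 0.0445). Thus 7 of 10 members were lower and 0 higher as deposited, where 30.1% of all tested genes were lower and 1.29% higher, and 28.7% did not overlap in the lower direction. Klf6 (-0.68, adjusted p = 0.265), Klf5 (-0.53, adjusted p = 0.507) and Klf10 (-0.41, adjusted p = 0.329) did not pass the test.

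Under median-of-ratios scaling the same comparison called 9.88% of genes lower and 13.6% higher. Klf9 (-2.05, adjusted p = 0.00238), Klf13 (-1.61, adjusted p = 0.00318) and Klf7 (-1.45, adjusted p = 0.0366) were lower, and Klf10 was higher (0.87, adjusted p = 0.0182). The difference of Klf16 was 0.00 there, against -1.28 as deposited, and those of Klf6 and Klf5 were 0.57 (adjusted p = 0.331) and 0.19 (adjusted p = 0.847). Across all tested genes the difference between the sets as deposited fell with gene length (Pearson's r with log2 length -0.43, a description over genes, which are not independent replicates). With the length trend removed, 2 members were called lower, Klf9 (-2.36, adjusted p = 0.00231) and Klf13 (-1.29, adjusted p = 0.00967), beside 8.95% of genes lower and 8.71% higher. Klf2, Klf3, Klf4, Klf7 and Klf16 were not called there.

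Without MP tumor 2, the library with 55.1% of its TPM in 10 genes, 3 members were called lower as deposited, namely Klf7 (-2.21), Klf9 (-3.05) and Klf13 (-2.42), where 16.4% of all tested genes were. Without MP tumor 3 there were 4, Klf16 in addition, where 20.3% of genes were lower, and without MP tumor 1 there were 6, where 27.3% were.

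Shares within the family do not depend on how a whole library is scaled. They can still carry the trend over gene length (r of fold change with log2 length -0.27 over all tested genes as deposited). A fall of any member also raises the shares of the others. The summed TPM of the 10 members was 330 to 374 in WT ovaries and 63.2 to 404 in MP tumors, of which the 3 tumors of set A held 63.2 to 122. Klf6 made up 26.1%, 24.4% and 18.8% of this sum in the 3 WT ovaries and 3.78% to 17.3% in MP tumors, without overlap. Klf16 made up 8.04%, 9.41% and 6.29% in WT ovaries and 11.2% to 31.5% in MP tumors, again without overlap. Klf4 contributed 3.59% to 5.36% in WT ovaries and 0.337% to 3.28% in MP tumors, and Klf3 5.66% to 6.59% and 0.863% to 5.4%. These shares are given as a description and were not tested.

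The share of Klf9 was 20.9% to 24.5% in WT ovaries, 19.4% to 32.1% in the 7 tumors of sets B and C and 4.88% to 8.78% in the 3 of set A. That of Klf10 ran the opposite way, at 6.99% to 13.1%, 10.3% to 17% and 21.2% to 35.2%. The ratio of Klf16 to Klf6, a pair picked after its values were seen, was 0.309 to 0.386 in WT ovaries and 1.14 to 5.63 in MP tumors, above the WT range in 10 of 10. Without MP tumor 2 the mean share of Klf16 in tumors was 23%, against 23.5% with it.

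**Figure D3:**
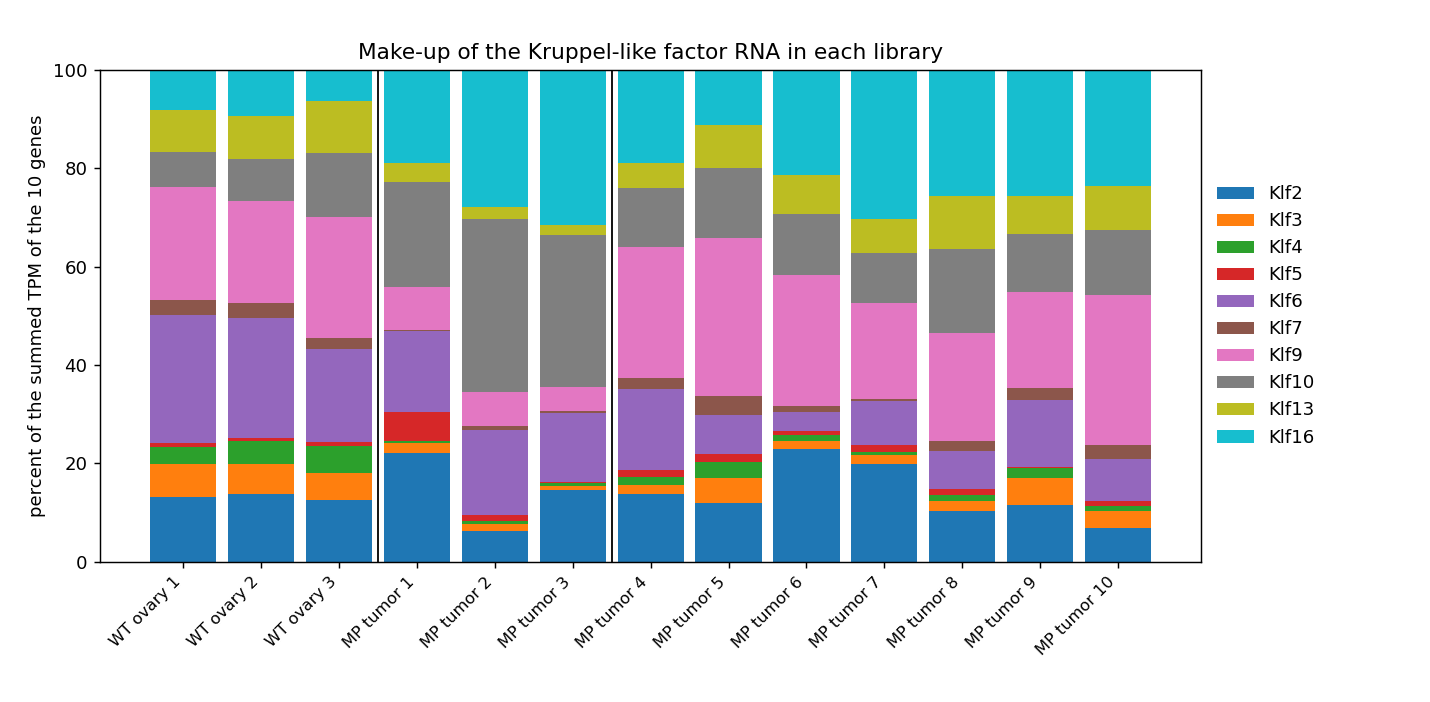
Percent of the summed TPM of the 10 members in each gene, one bar per library, with WT ovaries 1 to 3, MP tumors 1 to 3 (set A) and MP tumors 4 to 10 separated by vertical lines. The Klf6 share is 18.8% or more in each WT ovary and 17.3% or less in each MP tumor, and the Klf16 share runs the other way.

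The most abundant member was Klf6 in 2 WT ovaries and Klf9 in 1. Among MP tumors it was Klf9 in 4, Klf16 in 4, Klf2 in 1 and Klf10 in 1. By median TPM the order in WT ovaries was Klf9, Klf6, Klf2, Klf13, Klf16, Klf10, Klf3, Klf4, Klf7 and Klf5. The ranges of Klf9 and Klf6 overlapped, as did those of Klf13 and Klf16 and those of Klf16 and Klf10, while the ranges of all other neighbors did not. In MP tumors the order was Klf9, Klf16, Klf10, Klf2, Klf6, Klf13, Klf3, Klf7, Klf4 and Klf5, and the ranges of all neighbors overlapped. Klf6 lay above Klf13 in 6 of 10 tumors and Klf13 lay above Klf3 in 10 of 10.

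Members varied together in part across MP tumors. Correlations are Pearson's r of log2(scaled TPM + 1) and are a description, since tumors share set, depth and composition. Because the 3 tumors of set A stand apart, r over the other 7 is given. Klf4 went with Klf3 (0.75) and Klf7 (0.74), and Klf3 with Klf7 (0.66). Klf4 and Klf10 had an r of 0.80 over these 7 tumors and -0.46 over all 10, so the sign of that pair turned with the 3 tumors of set A. Klf16 ran against Klf7 (-0.72) and Klf9 (-0.49). Klf9 and Klf13 had an r of -0.11 over these 7 tumors, so their common pattern over all 10 rested on the 3 tumors of set A.

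By the same measure, the genes most like each member over all 10 tumors were sought among tested genes with a mean of at least 10 TPM. For Klf4 they were Fkbp10, Zyx and Slc35b4 (r over the other 7 tumors 0.95, 0.94 and 0.92), and for Klf6 they were Laptm4a, Stx7 and Aaed1 (0.90, 0.88 and 0.88). Klf3 was nearest to Slco3a1, Sema4c and Lrp1 (0.99, 0.92 and 0.97), and Klf7 to Ptprf, Lima1 and Clip3 (0.97, 0.98 and 0.92). For Klf9 the 3 were Ctdspl, Camkk2 and Sppl3 (0.88, 0.87 and 0.75), and for Klf13 they were Tbc1d10b, Lrrc47 and Ppard (0.89, 0.81 and 0.87). For Klf16 they were Pcsk4, Arl15 and Pde3b (0.91, 0.87 and 0.79). The genes named for Klf2 were Bmp7, Eva1b and Ppp2cb (0.93, 0.90 and 0.85), and those for Klf5 were Apoc1, Slc22a5 and Cyp2f2 (0.87, 0.89 and 0.84). Of the genes chosen for Klf10, Hnrnph1 had an r of 0.81 over the 7 tumors, Sept7 had 0.43 and Gtf3c3 had -0.23. The 7 tumors were part of the 10 used to choose the genes, so r over them is no independent check. Of the 30 genes, 4 lie on the chromosome of their member (Ppp2cb, Aaed1, Tbc1d10b and Pcsk4).

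The rest of the family was listed as 16 further KLF and SP genes, of which 11 were tested. Klf17 and Sp4 were called lower and 0 higher, beside 14.3% and 2.51% of all tested genes. Of these, Klf17 reached 1 TPM in 3 WT ovaries and 1 MP tumor, so it passed the filter through the ovaries and its lower call carries no weight. Klf17, a gene of oocytes and early embryos, was at 3.01 to 4.48 TPM in WT ovaries and 0 to 1.07 TPM in MP tumors. Oocyte markers moved with it, at a summed 251 to 371 TPM in WT ovaries and 1.69 to 31.0 TPM in MP tumors, and their part in the result was not tested. Sp4 was lower (8.92 ± 1.85 against 3.28 ± 1.95 TPM, adjusted p = 0.0494) but not under median-of-ratios scaling (0.163). Klf11, the closest relative of Klf10, was at 23.6 to 33.2 TPM in WT ovaries and 1.95 to 17.7 TPM in MP tumors. The groups did not overlap, which held for 16.4% of tested genes in this direction. Klf11 was not called (limma adjusted p 0.0771, and 0.0782 under median-of-ratios scaling).

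Klf8 and Klf12, which share the CtBP-binding motif of Klf3, did not pass the test. Klf12 was at 6.23 ± 0.455 TPM in WT ovaries and 2.46 ± 2.55 TPM in MP tumors, and Klf8 at 6.38 ± 1.97 and 5.48 ± 2.91 TPM. Klf15, a metabolic regulator, was at 27.6 ± 4.94 and 19.2 ± 12.8 TPM. Klf1, the erythroid member, was at 0.426 to 0.872 TPM in WT ovaries and 0 to 3.00 TPM in MP tumors, with summed erythroid markers of 226 to 432 and 451 to 6177 TPM (2 of 5 called higher beside 2.51% of all tested genes, and 4 of 5 beside 7.37% under median-of-ratios scaling). Sp1 and Sp3, the common activators that bind the same GC boxes, were at 76.7 ± 6.10 and 89.1 ± 7.60 TPM in WT ovaries and at 46.2 ± 34.4 and 62.2 ± 33.5 TPM in MP tumors. Sp2 and Sp5 were tested without a call, Klf14, Sp7 and Sp8 did not reach the filter, and Sp6 and Sp9 were listed at 0 in all libraries.

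The cascade upstream of Klf2 and Klf4 was listed as 8 genes of MEK5, ERK5 and MEF2 signaling. None of the 8 was called, with a median of -1.20 against -0.58 over all tested genes, and all 8 changes were negative as deposited. After median-of-ratios scaling 5 were negative, with a median of -0.59 against -0.02 over all tested genes. Of 6 tested vascular targets of Klf2 and Klf4, Nos3 and Thbd were lower and 0 were higher, beside 14.3% and 2.51% of all tested genes. Thbd, the thrombin receptor thrombomodulin, was at 33.8 to 55.0 TPM in WT ovaries and 0.338 to 11.7 TPM in MP tumors (log2 fold change -3.21, SE 0.59, adjusted p = 0.00175). Of 10 endothelial markers, Tek, Eng, Cldn5, Emcn and Kdr were called lower and 0 higher (14.3% and 2.51% over all tested genes), the other 5 did not pass the test, and none was at 0 in any tumor. Their summed TPM was 580 to 700 in WT ovaries, 14.1 to 41.2 in the 3 tumors of set A and 41.6 to 358 in the other 7. Klf2 did not follow that sum in MP tumor 6, which had 61.5 TPM of Klf2 beside a sum of 41.6. Klf4 was highest in MP tumors 5 and 9, which had the highest endothelial sums and also the highest sums of 6 fibroblast markers (2428 and 4632 TPM). MP tumor 7, the next in endothelial sum (204), had 1.90 TPM of Klf4, the least of the 7 tumors of sets B and C. The part of endothelial and fibroblast content in the Klf4 result was not tested.

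**Figure D4:**
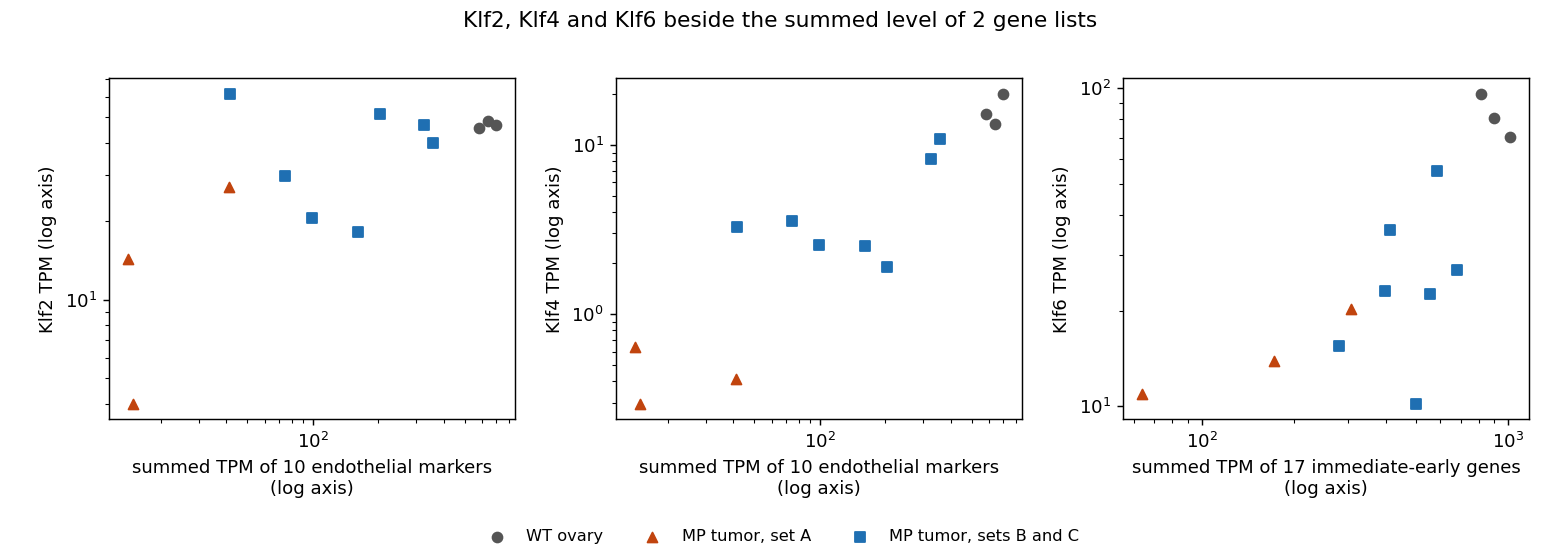
TPM of Klf2 and Klf4 against the summed TPM of 10 endothelial markers, and of Klf6 against that of 17 immediate-early genes, on log axes with one point per library. WT ovaries lie to the right of all MP tumors in each panel (580 or more against 358 or less for endothelial markers), and MP tumor 6 combines 61.5 TPM of Klf2 with a marker sum of 41.6.

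Other cell types that express members were set beside them. Markers of T cells, where Klf2 and Klf13 are studied, summed to 13.2 to 16.2 TPM in WT ovaries and 1.35 to 19.7 TPM in MP tumors, with 5 of the 7 at 0 in some tumors. Of these markers 4 were tested, and those that were called reached 1 TPM in WT ovaries only, so their calls are not given. Macrophage markers summed to 1574 to 3919 and 756 to 4013 TPM with 0 of 7 called. Of the 6 smooth muscle and pericyte markers 5 were lower, and of the 6 fibroblast markers 2 were, beside 14.3% of all tested genes. Under median-of-ratios scaling these were 4 and 1, beside 11%. The 6 granulosa markers were at a summed 3353 to 6277 TPM in WT ovaries and 4.54 to 1507 TPM in MP tumors. The part of these cell types in the members' values was not tested.

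Klf4, Klf6 and Klf10 are themselves early-response genes, so 17 other immediate-early genes were listed. Dusp1, Fosl2, Egr3 and Egr2 were lower and 0 were higher, with Egr3 passing the filter through the WT ovaries (1 TPM was reached in only 2 MP tumors), beside 14.3% lower and 2.51% higher over all tested genes. All 17 changes were negative as deposited, with a median of -1.23, and 14 were negative under median-of-ratios scaling, with a median of -0.58. Fosl2, an AP-1 subunit, was at 201 to 254 TPM in WT ovaries and 0.706 to 54.3 TPM in MP tumors (log2 fold change -4.61, SE 0.85, adjusted p = 0.00171). The summed list was 816 to 1016 TPM in WT ovaries and 63.6 to 679 TPM in MP tumors. For Klf10, 9 of 10 tumors lay in the range of the WT ovaries as deposited. The upper end of that range is WT ovary 3 alone (49.1 TPM, against 25.8 and 27.9). Under median-of-ratios scaling 4 tumors lay above the WT range of Klf10 and 0 below. A link between Klf10 and these genes was not tested.

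TGF-beta induces Klf10 and its relative Klf11. Of 9 TGF-beta and SMAD genes, Tgfb1, Tgfbr1 and Tgfbr2 were lower and 0 higher (14.3% and 2.51% over all tested genes), with a median of -1.75 against -0.58 over all tested genes (-1.09 and -0.02 under that scaling). Tgfbr1, the type I receptor, was at 89.5 to 142 TPM in WT ovaries and 6.47 to 41.5 TPM in MP tumors (log2 fold change -2.73, SE 0.48, adjusted p = 0.00123). The log2 fold change of Klf10 was -0.04 in the same fit and 0.66 under median-of-ratios scaling. A link between Klf10 and the TGF-beta genes was not tested. Glucocorticoids induce Klf9, and among 9 tested steroid and thyroid receptors and glucocorticoid-induced genes Sgk1, Fkbp5 and Nr3c2 were lower and 0 higher (14.3% and 2.51% over all tested genes), of which Nr3c2 was not called under median-of-ratios scaling (adjusted p = 0.0546). Fkbp5 was at 545 to 677 TPM in WT ovaries and 4.27 to 134 TPM in MP tumors (-3.92, SE 0.80, adjusted p = 0.00388), and Sgk1 at 288 to 372 and 3.89 to 33.5 TPM (-4.47, SE 0.48, adjusted p = 1.05e-05). The summed TPM of all 10 genes listed there, the untested Pgr included, was 1082 to 1243 in WT ovaries, 35.4 to 88.9 in the 3 tumors of set A and 175 to 491 in the other 7. Klf9 was at 4.41 to 10.7 TPM in the former 3 tumors and at 44.3 to 107 TPM in the latter 7. All WT ovaries (68.8 to 91.8 TPM) lay inside the latter range. Of all tested genes, 30.1% were called lower in the former tumors than in the latter as deposited. Neither a link between Klf9 and these genes nor the part of cell content was tested.

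Of the 9 corepressor genes through which Klf3 and the SIN3A-binding members act, Sap30, a subunit of the SIN3A complex, was higher and 0 were lower, beside 2.51% and 14.3% of all tested genes. Sap30 was at 32.8 to 41.1 TPM in WT ovaries and 69.8 to 261 TPM in MP tumors. Its log2 fold change was 1.74 (SE 0.39, limma adjusted p = 0.00676). The groups did not overlap, which held for 3.02% of tested genes in this direction. Ctbp1 and Ctbp2, partners of Klf3, had changes of -0.43 and -0.09 as deposited and 0.28 and 0.59 under median-of-ratios scaling, and Sin3a had -0.65 and 0.06, none of which passed the test. The 3 ubiquitin ligases known to act on members, Fbxw7, Wwp1 and Smurf1, did not pass it either, with a median of -1.48. Of 7 adipogenic factors, Pparg was lower (58.6 ± 25.4 TPM in WT ovaries, 2.85 ± 2.03 TPM in MP tumors, adjusted p = 8.02e-05) and 0 were higher as deposited, whereas under median-of-ratios scaling Lpl was also called, as higher (log2 fold change 1.54, adjusted p = 0.00371). Of 3 tested pluripotency factors 0 were called.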

How the data were processed

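RNA was measured in 3 WT ovaries and 10 MP tumors, with 1 library each. The authors deposited 1 table of TPM values per gene and library. The submitters' processing notes name FastQC 0.11.5, Trimmomatic 0.36, STAR 2.5.3a, featureCounts 1.6.3 and the mouse build mm10 (GRCm38), whereas the extraction protocol names a human build, HTSeq and RPKM. The values and mouse identifiers were taken as the table gives them. Multiplied by gene length, 100% of the values above 0 came out as whole multiples of a unit (tolerance 0.01), which gave the reads per library, and counting error alone was not put into intervals. Separate animals per library are not stated for WT ovaries, so p values measure the spread between these samples.

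Genes that reached 1 TPM in 3 or more of the 13 libraries were fitted as log2(TPM + 1) with limma 3.58.1 (trended, robust) in R 4.3.3, with no covariates. The p values of all 17277 genes were adjusted together (Benjamini-Hochberg) and called under 0.05. A fold change on this scale understates that of low genes. Single members were also tested by exact permutation, 2-sided. The members and gene lists were chosen with earlier results of these data known, and no list was tested. Named genes were all members, all other KLF and SP genes, of each pathway list up to 4 called genes averaging 10 TPM or more, and the 3 genes most like each member. Nos3, Egr2, Egr3, Nr3c2, Lpl, Pgr, Ctbp1, Ctbp2, Sin3a and the ubiquitin ligases were named after their values were seen. So were Tek, Eng, Cldn5, Emcn and Kdr among endothelial markers and Cdh1 and Krt19 among epithelial markers. Alternatives varied the pseudocount, filter, scaling, gene length trend, the sets of the library names, replicate block, limma options, voom on recovered reads and single libraries. Those that left out the tumors of set A, or combined a set with scaling, were chosen after seeing the data. Code was tested on simulated data. Other tools were Python 3.11.15, pandas 2.3.3, numpy 2.4.6, scipy 1.17.1 and matplotlib 3.10.9.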

Additional observations from a re-analysis of the deposited data

Results flagged for a closer look

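Of 21 measures screened for a single sample far from the others in its group (about 1 in 20 such groups is picked out by chance, so 1.05 here), 1 was picked out. The share of Klf5 in the summed TPM of the 10 members was 5.99% in MP tumor 1 and 0.133% to 1.6% in the other 9 MP tumors. The WT ovaries held 0.689% to 0.951%. In TPM, Klf5 was at 7.30 in MP tumor 1 and at most 5.32 in the others.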

How the results depend on the processing

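Klf4 was called lower in 24 of 28 alternative fits and Klf6 in 26. With a pseudocount of 0.1, 1 member was called lower, beside 1752 genes lower and 421 higher (2463 and 433 with a pseudocount of 1). Leaving out 1 library at a time gave 0 to 3 members lower, 1158 to 3264 genes lower and 94 to 635 higher, with 0 members without WT ovary 1 or WT ovary 2, 1 without WT ovary 3 and 3 without MP tumor 5 or MP tumor 9. With 1 member higher in each case, genes called higher were 1274 under median-of-ratios scaling (1897 lower), 1904 under quantile normalization, 1789 with the length trend removed, 2729 with voom on recovered reads, 808 without the tumors of set A and 1346 without them after scaling. In these 6 fits Klf10 turned to 0.66, 0.61, 0.67, 0.69, 0.082 and 0.38, and Klf5 turned to 0.20, 0.49, 0.51 and 0.041 in the first 4 and 0.14 in the last, in which Klf9 was at 0.036. These fits differ in scaling, model or libraries. None of those values passed the test, and the cause was not tested. Leaving out 1 library moved Klf10 between -0.21 and 0.24, positive without WT ovary 3 or MP tumor 2.

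Set A alone called 7 members lower, 9902 genes lower and 1112 higher. With the set as covariate these were 7, 8534 and 894, and Klf16 turned to -0.25 in both. With scaling added, set A alone called 6 members lower and 2 higher, with 5700 genes lower and 4452 higher, Klf5 at 0.30 and Klf10 at 1.19. No source says that WT ovaries 1 to 3 and MP tumors 1 to 3 are paired by number, and the correlations of same-numbered deviations (-0.0488, 0.0190 and -0.0367) do not pair them. A replicate block over these 6 libraries called 7 members and 9838 genes lower, 1095 genes higher and Klf16 at -0.25, close to the same libraries without it.

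Between tumors, median-of-ratios scaling gave 3 members lower and 1 higher (1707 genes lower, 2358 higher), with Klf5 at 0.19, Klf6 at 0.57, Klf10 at 0.87 and Klf16 at 0.00014. With the length trend removed there were 2 members lower (1546 genes lower, 1505 higher), with Klf5 at 0.67, Klf6 at 0.43 and Klf10 at 0.67. Leaving out MP tumor 1, 2 or 3 gave 3 to 6 members lower, 2830 to 4714 genes lower and 46 to 343 higher, and moved Klf5 between -1.38 and 0.059, positive without MP tumor 3. Depth limits Klf4, Klf5 and Klf7 most, whose lowest values rest on 5, 6 and 13 reads. Over all fits, 27 fold changes of members turned sign. Of the fold changes that kept their sign, 31 crossed to the called side and 22 crossed from it.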
